A study of Mus musculus with 10 samples.

Results

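Genes of the BCL2 family, which control death at the mitochondrion, were followed in the intermediate lobe (IL) of the mouse pituitary by bulk RNA sequencing. The 10 genes were Pmaip1 (NOXA), Bbc3 (PUMA), Bcl2l11 (BIM), Bcl2, Bcl2l1 (BCL-XL), Mcl1, Bax, Bak1, Bnip3 and Bnip3l (NIX). They were found by their Ensembl gene identifiers and symbols among the 29527 genes of the table, and all 10 were present and passed the minimum level for testing, as did 17268 genes in all. The set was selected on genotype values of this same table that were already known, so the genotype differences of the 10 genes are given as descriptions, without p-values. IL were dissected from mice of 3 genotypes, namely wild type (WT, 4 mice), p27-/- (3 mice) and p27-/-;Sox2+/- (3 mice). By the labels the mice were 2 to 3 months old, and each gave 1 library. Both mutant groups lack both copies of Cdkn1b, the gene of the cell cycle inhibitor P27, in every cell of the body, and p27-/-;Sox2+/- mice in addition lack 1 copy of Sox2, which encodes a transcription factor of stem cells and melanotrophs. The p27 allele was Cdkn1b tm1Mf and the mice were kept on a mixed background, according to the study's methods. The labels give neither sex nor litter, the study's supplement gives both sexes in each genotype without tying a sex to a sample, and no group carries the Sox2 deletion alone. Because the deletions are constitutive and the tissue was sequenced in bulk, fewer cells of a type and less RNA per cell cannot be told apart.

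The family works through binding between its members. BH3-only proteins (NOXA, PUMA, BIM) bind and occupy the anti-apoptotic proteins (BCL2, BCL-XL, MCL1), which otherwise hold back the effectors BAX and BAK, and free effectors open pores in the outer mitochondrial membrane so that cytochrome c is released and caspases are activated. NOXA binds mainly MCL1, whereas BIM and PUMA bind all the main anti-apoptotic proteins. BNIP3 and NIX, which carry a BH3-like stretch, are anchored in the mitochondrial membrane and act chiefly as receptors for mitophagy, and their genes are induced in hypoxia.

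The tissue label was checked first. Values are log2 expression as deposited, and ± gives the SD between mice. Pax7, which defines melanotrophs, lay between 11.45 and 11.97 in the 10 samples, and the log2 of the summed melanotroph markers, Pomc included, between 18.11 and 19.08. Of the 6 markers, Pcsk1 was below WT without overlap in p27-/- (log2 difference -0.45) and p27-/-;Sox2+/- mice (-0.42). Pcsk2 was above WT without overlap in p27-/- mice (0.53). These differences passed the threshold given below. Pomc, Pax7, Tbx19 and Drd2 overlapped WT in both mutants, as did Pcsk2 in p27-/-;Sox2+/- mice. Cdkn1b was between 8.39 and 8.85 in WT, between 8.04 and 8.27 in p27-/- and between 7.73 and 8.10 in p27-/-;Sox2+/- samples, without overlap between WT and either mutant. The value of a whole gene can include reads outside the deleted part, so it is a weak check of the deletion. Sox2 was between 7.34 and 7.75 in WT, 7.08 and 7.45 in p27-/- and 6.88 and 7.07 in p27-/-;Sox2+/- samples, the last group below every other sample. The log2 of the summed proliferation markers Mki67 and Top2a did not overlap between genotypes, with 7.54 to 8.66 in WT, 9.80 to 10.48 in p27-/- and 8.95 to 9.45 in p27-/-;Sox2+/- samples. The 5 endothelial markers summed to 8.53 to 8.89 in WT, 8.09 to 8.46 in p27-/- and 8.22 to 8.66 in p27-/-;Sox2+/- samples. The sum of the 6 measured anterior lobe hormone and factor genes ranged within genotypes, from 13.06 to 17.70 in WT, 12.48 to 16.47 in p27-/- and 13.08 to 14.56 in p27-/-;Sox2+/- samples, and was highest in WT replicate 2. That of the 6 posterior lobe markers also ranged within genotypes, from 10.20 to 12.39, 10.67 to 10.95 and 10.36 to 12.20. The stem cell markers summed to 9.68 to 9.98 in WT, 9.49 to 9.76 in p27-/- and 9.69 to 9.89 in p27-/-;Sox2+/- samples. Fibroblast markers summed to 11.13 to 11.54, 10.44 to 11.47 and 10.53 to 11.33. Of these, Lum was below WT without overlap in both mutants, at log2 differences of -0.75 and -0.78, the first past the threshold. Col1a1, Col1a2 and Dcn overlapped WT. Leukocyte and erythroid sums overlapped between WT and each mutant. The part of these cell types and lobes in the differences below was not tested.

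In p27-/- compared with WT, 7.78% of all tested genes passed the threshold (adjusted p under 0.05 in limma, Benjamini-Hochberg over 17268 genes), 3.16% higher and 4.62% lower. Among the 10 family genes 3 passed it in that comparison, Pmaip1 and Bnip3 higher and Bcl2 lower. In p27-/-;Sox2+/- compared with WT the share of all genes was 2.71%, 0.828% higher and 1.88% lower, and 2 of the 10 passed, Bcl2l11 higher and Bcl2 lower. Between the mutants it was 0.145%, 0.0811% higher and 0.0637% lower in p27-/-;Sox2+/-, and 1 of the 10, Pmaip1, passed with the lower value in p27-/-;Sox2+/-. Values of the compared groups did not overlap for 6 of the 10 genes in p27-/- against WT, where 20.6% of all genes did not. The same held for 2 of the 10 in p27-/-;Sox2+/- against WT, with a background of 15%, and for 4 of the 10 between the mutants, with a background of 15.3%. In Bcl2 and Bcl2l11, 2 of the 10, no pair of genotypes overlapped, as in 1.4% of all genes. Since these contrasts were known when the genes were chosen, nothing is read from the counts. Both comparisons with WT use the same 4 WT samples. The median log2 difference of the 10 genes was 0.20 in p27-/- and 0.11 in p27-/-;Sox2+/- compared with WT and -0.15 between the mutants, beside 0.01, 0.01 and 0.00 over all tested genes.

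**Figure D1:**
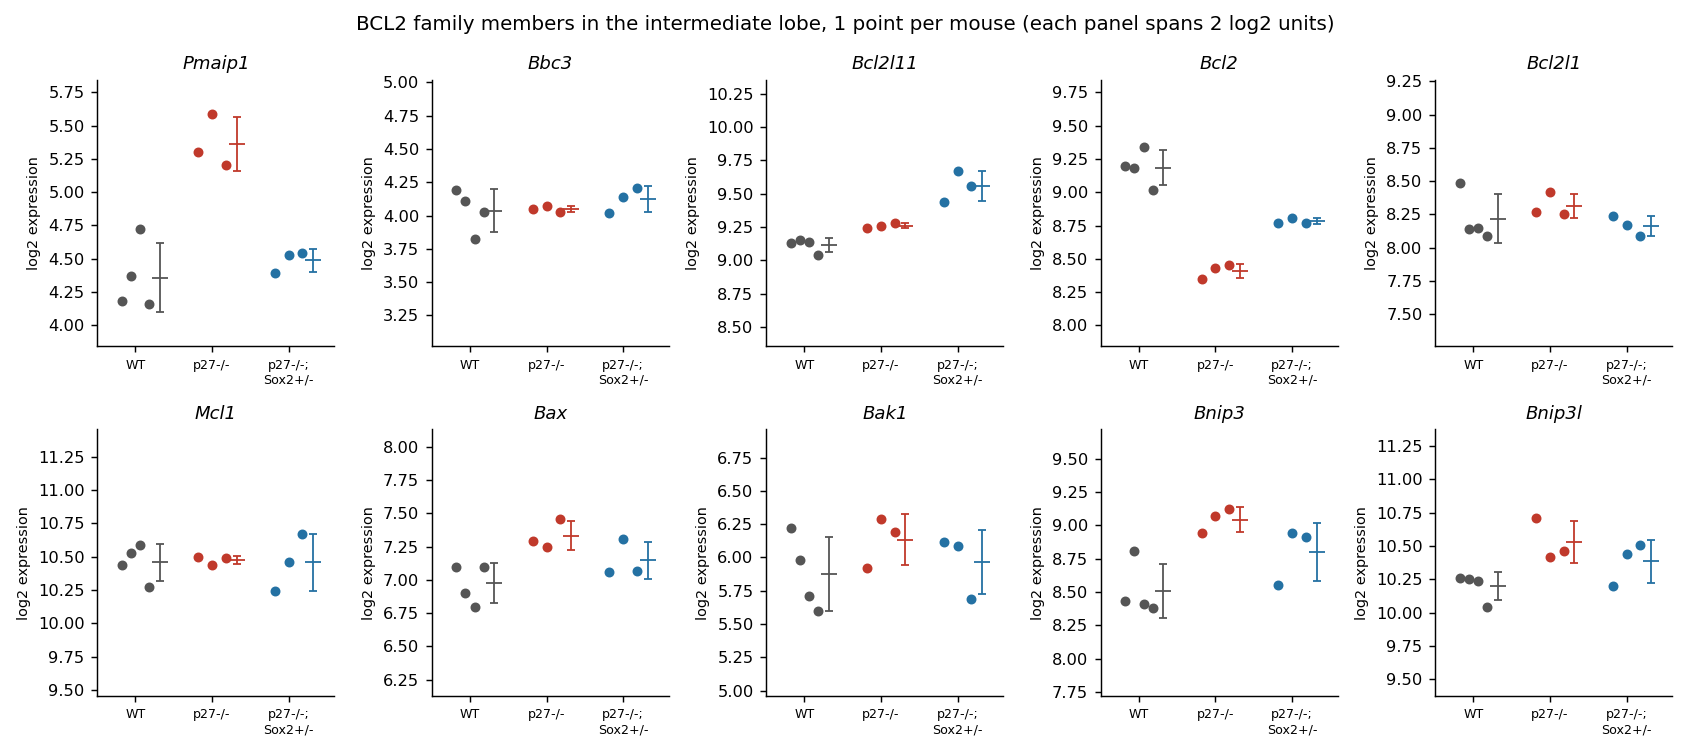
Log2 expression (vertical axis) of the 10 genes by genotype, 1 point per mouse, with the mean and SD beside the points. Each panel spans the same number of log2 units. Pmaip1 is higher in all p27-/- mice, from 5.20 to 5.59, than in any other mouse, and Bcl2 is ordered WT, p27-/-;Sox2+/-, p27-/- without overlap.

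Among the BH3-only genes, Pmaip1 set the p27-/- mice apart. Pmaip1 (ENSMUSG00000024521) lies on chromosome 18 from 66458604 to 66465558 of GRCm38. It had log2 values of 4.18, 4.37, 4.72 and 4.16 in WT replicates 1 to 4. In p27-/- replicates 1 to 3 it had 5.30, 5.59 and 5.20, and in p27-/-;Sox2+/- replicates 1 to 3 it had 4.39, 4.53 and 4.54. All p27-/- samples were above all the others, whereas the p27-/-;Sox2+/- samples fell within the range of WT. The log2 difference was 1.00 (standard error 0.14, 95% interval 0.70 to 1.31) in p27-/- compared with WT, a 2.00-fold level. It was 0.13 (0.14, -0.17 to 0.44) in p27-/-;Sox2+/- compared with WT and -0.87 (0.15, -1.19 to -0.55) between the mutants. Of the distance between WT and p27-/- means, 13.3% remained in p27-/-;Sox2+/- mice. Its lowest value, 4.16, was not far above the minimum mean for testing of 3.32. The call in p27-/- against WT was kept in all 18 alternative settings that held the gene, but that between the mutants was lost in 12 of 18, among them each setting that left out a mutant mouse and those without WT replicate 2 or 4, with differences from -0.95 to -0.76 when a mutant mouse was left out.

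Bbc3, the gene of PUMA, which like Pmaip1 is a known target of p53, differed by less than the spread between mice. Bbc3 (ENSMUSG00000002083, chromosome 7, 16308398 to 16318334) had 4.19, 4.11, 3.82 and 4.03 in WT samples. It had 4.05, 4.07 and 4.03 in p27-/- and 4.02, 4.14 and 4.21 in p27-/-;Sox2+/- samples, with overlap of all genotypes. The 95% intervals of its log2 differences were -0.20 to 0.22 and -0.12 to 0.30 against WT in p27-/- and p27-/-;Sox2+/- mice.

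The gene of BIM, Bcl2l11, was highest in p27-/-;Sox2+/- mice. Bcl2l11 (ENSMUSG00000027381, chromosome 2, 128126038 to 128162547) had 9.13, 9.15, 9.14 and 9.04 in WT samples. It had 9.24, 9.26 and 9.28 in p27-/- and 9.44, 9.67 and 9.56 in p27-/-;Sox2+/- samples. The genotypes were ordered WT, p27-/-, p27-/-;Sox2+/- with no overlap, an order other than that of Pmaip1. The log2 difference from WT was 0.14 (standard error 0.08, 95% interval -0.03 to 0.32) in p27-/- and 0.44 (0.08, 0.27 to 0.62) in p27-/-;Sox2+/- mice, a 1.36-fold level, and that between the mutants was 0.30 (0.09, 0.11 to 0.49). The call in p27-/-;Sox2+/- was lost without p27-/-;Sox2+/- replicate 2, at a difference of 0.39.

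Of the anti-apoptotic genes, Bcl2 was lower in both mutants and lowest in p27-/- mice. Bcl2 (ENSMUSG00000057329, chromosome 1, 106538176 to 106714290) had 9.20, 9.18, 9.34 and 9.02 in WT samples. It had 8.35, 8.43 and 8.45 in p27-/- and 8.77, 8.81 and 8.77 in p27-/-;Sox2+/- samples. The 3 p27-/-;Sox2+/- mice differed by no more than a few hundredths of a log2 unit and lay between the other genotypes. In p27-/- mice the log2 difference from WT was -0.78 (standard error 0.09, 95% interval -0.97 to -0.58), 0.583 of the WT level. In p27-/-;Sox2+/- mice it was -0.40 (0.09, -0.60 to -0.21), and 52.0% of the distance between WT and p27-/- means remained. Between the mutants it was 0.37 (0.10, 0.17 to 0.58). The call in p27-/- mice was kept in all 19 alternative settings, and that in p27-/-;Sox2+/- mice was lost in 7 of 19, among them those without WT replicate 3 or any 1 of the p27-/-;Sox2+/- mice.

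Bcl2l1 and Mcl1, the genes of BCL-XL and MCL1, had group means closer together than the spread between WT mice. Bcl2l1 (ENSMUSG00000007659, chromosome 2, 152758732 to 152833803) had 8.49, 8.14, 8.15 and 8.09 in WT, 8.27, 8.42 and 8.25 in p27-/- and 8.24, 8.17 and 8.09 in p27-/-;Sox2+/- samples. Its only high WT value was that of replicate 1, and the mutants did not overlap by a margin of 0.01 in the rounded values. Mcl1 (ENSMUSG00000038612, chromosome 3, 95656944 to 95663179) had 10.44, 10.53, 10.59 and 10.27 in WT, 10.50, 10.44 and 10.49 in p27-/- and 10.24, 10.46 and 10.67 in p27-/-;Sox2+/- samples. Both WT and p27-/-;Sox2+/- mice spread more widely than p27-/- mice. The 95% intervals of the log2 difference from WT were -0.21 to 0.25 in p27-/- and -0.23 to 0.23 in p27-/-;Sox2+/- mice for Mcl1, and -0.14 to 0.33 and -0.28 to 0.18 for Bcl2l1.

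The effector Bax had its highest mean in p27-/- mice. Bax (ENSMUSG00000003873, chromosome 7, 45461695 to 45466903) had 7.10, 6.90, 6.80 and 7.10 in WT, 7.29, 7.25 and 7.46 in p27-/- and 7.06, 7.31 and 7.07 in p27-/-;Sox2+/- samples. The p27-/- samples were above all WT samples, at a log2 difference of 0.36 (standard error 0.12, 95% interval 0.10 to 0.61) that did not pass the threshold over all genes, and p27-/-;Sox2+/- samples overlapped both. Bak1 (ENSMUSG00000057789, chromosome 17, 27019812 to 27028627), the other pore-forming effector, had 6.22, 5.98, 5.71 and 5.60 in WT, 5.92, 6.29 and 6.19 in p27-/- and 6.12, 6.09 and 5.69 in p27-/-;Sox2+/- samples. All 3 genotypes overlapped for Bak1, whose log2 difference of 0.26 in p27-/- mice had an interval from -0.10 to 0.61.

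Both mitophagy receptor genes had their highest mean in p27-/- mice. Bnip3 (ENSMUSG00000078566, chromosome 7, 138890836 to 138909506) had 8.43, 8.81, 8.41 and 8.38 in WT, 8.94, 9.07 and 9.12 in p27-/- and 8.55, 8.94 and 8.91 in p27-/-;Sox2+/- samples. Every p27-/- sample was above every WT sample, and p27-/-;Sox2+/- samples overlapped both groups. The log2 difference from WT was 0.53 (standard error 0.13, 95% interval 0.26 to 0.80) in p27-/- mice, a 1.45-fold level, and 0.29 (0.13, 0.02 to 0.56) in p27-/-;Sox2+/- mice. Between the mutants it was -0.24 (0.13, -0.53 to 0.05). The call in p27-/- mice was lost without WT replicate 3 or 4 or p27-/- replicate 2 or 3, with differences of 0.50, 0.49, 0.52 and 0.49. Bnip3l (ENSMUSG00000022051, chromosome 14, 66985238 to 67008877) had 10.26, 10.25, 10.24 and 10.04 in WT, 10.71, 10.42 and 10.46 in p27-/- and 10.20, 10.44 and 10.51 in p27-/-;Sox2+/- samples. Its p27-/- samples were also above all WT samples, at a log2 difference of 0.33 (0.10, 0.11 to 0.55) that did not pass the threshold. In p27-/-;Sox2+/- mice 55.0% of the distance between WT and p27-/- means remained for Bnip3 and 55.6% for Bnip3l.

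**Figure D2:**
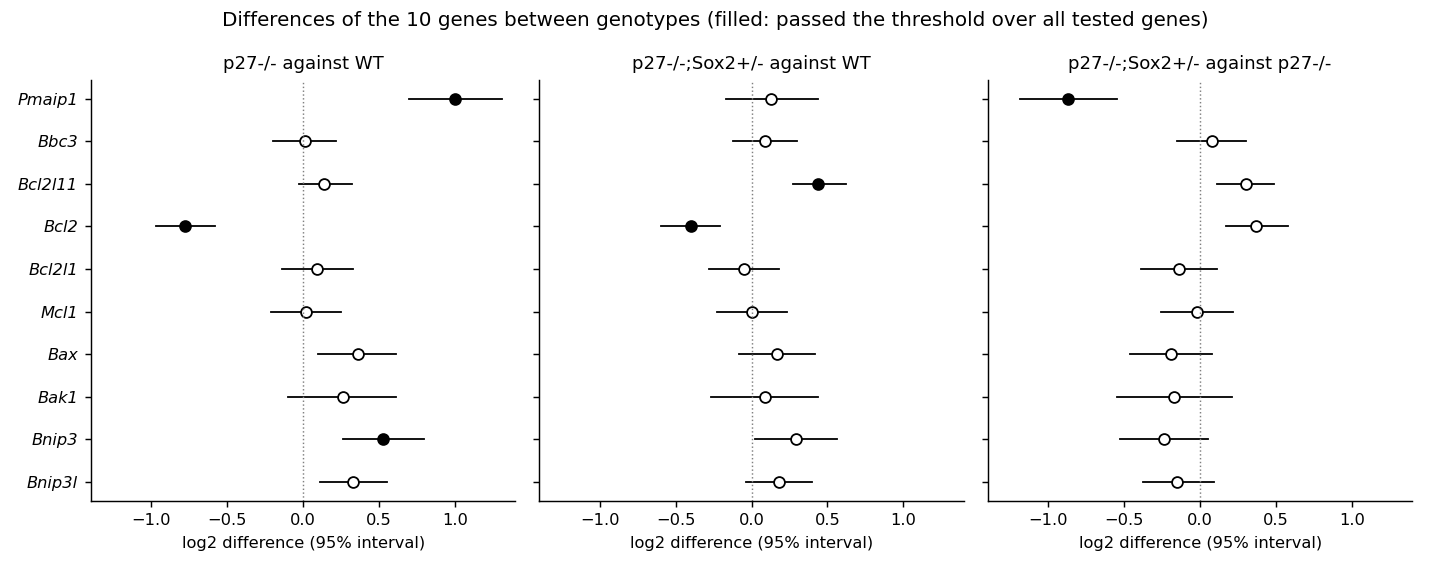
Log2 difference (horizontal axis) with its 95% interval for each of the 10 genes in the 3 comparisons, with filled points for genes past the threshold over all tested genes. Pmaip1 stands at 1.00 in p27-/- against WT and at -0.87 between the mutants, and Bcl2 at -0.78 and -0.40 against WT.

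The sequences before the start sites of 3 of these genes are shown because their mRNA differed by genotype and because Bnip3 is a known target of hypoxia-inducible factors. RefSeq's promoter table on GRCm38.p6 held 13 start sites for 8 of the 10 genes, and Pmaip1 and Bnip3l were not analysed here in this respect. The 250 bases before the start were searched on both strands for the core of hypoxia response elements (ACGTG or GCGTG), for an E2F core (TTTCCCGC, TTTGGCGC, TTTCGCGC or TTTGCCGC) and for a SOX core (ACAATG or ACAAAG). Capitals mark each match below, in sequences given 5′ to 3′ along the gene.
Bcl2l11, chr2:128125788-128126037, plus strand: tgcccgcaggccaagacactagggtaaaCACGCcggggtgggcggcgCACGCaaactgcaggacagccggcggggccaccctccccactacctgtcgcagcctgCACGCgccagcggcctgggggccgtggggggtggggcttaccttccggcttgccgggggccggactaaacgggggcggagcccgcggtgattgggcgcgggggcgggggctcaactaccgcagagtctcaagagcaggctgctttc
Bcl2, chr1:106714291-106714540, minus strand: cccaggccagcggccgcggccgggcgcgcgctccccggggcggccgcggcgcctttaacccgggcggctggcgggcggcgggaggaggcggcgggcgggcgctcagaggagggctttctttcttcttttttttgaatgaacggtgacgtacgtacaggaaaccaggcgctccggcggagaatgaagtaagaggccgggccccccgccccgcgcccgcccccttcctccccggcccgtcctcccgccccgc
Bnip3, chr7:138909507-138909756, minus strand: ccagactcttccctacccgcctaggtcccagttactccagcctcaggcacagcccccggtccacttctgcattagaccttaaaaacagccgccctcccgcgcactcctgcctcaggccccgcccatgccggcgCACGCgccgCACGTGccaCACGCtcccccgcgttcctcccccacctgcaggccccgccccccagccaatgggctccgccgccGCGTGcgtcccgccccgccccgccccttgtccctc
The Bnip3 window held 5 matches to the hypoxia response core, with their first bases at -117, -108, -107, -99 and -35 from the start site, of which those at -108 and -107 are both strands of a shared stretch of letters. The Bcl2l11 window, the first of its start sites in the table, held 3 such matches, at -222, -203 and -146, and the Bcl2 window held 0. For the E2F and SOX cores all 3 windows held 0 matches. Among the other start sites, those of Bbc3 held 4, 1 and 3 matches to the hypoxia response core, Bax held 2 and the third of Bcl2l1 held 1. The second of Bcl2l11, the other sites of Bcl2l1, Mcl1 and Bak1 held 0 matches to this core. In all, 7 of the 13 windows held it. Over 32817 windows of this length in the table, 38.6% held the hypoxia response core, 1.86% the E2F core and 25.2% the SOX core, so that a match to the first is common. A match is a string of letters and no measured binding site.

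Within each mouse, the ratios of pairs of genes differed from WT to different degrees, and some stayed within the range of WT. The pairs were chosen after the values were seen, and the log2 ratio of each is relative to its WT mean. Bcl2 relative to Bcl2l11 was -0.96, -0.91 and -0.91 in p27-/- and -0.74, -0.93 and -0.87 in p27-/-;Sox2+/- mice, with -0.10 to 0.13 in WT. The p27-/- mean was -0.92 ± 0.03 (SD, n = 3), the p27-/-;Sox2+/- mean -0.85 ± 0.10 (SD, n = 3), and the mutants overlapped. In p27-/- mice the ratio was low chiefly through Bcl2, and in p27-/-;Sox2+/- mice through both genes. Bcl2 relative to Bax was -1.15, -1.04 and -1.23 in p27-/- and -0.50, -0.71 and -0.52 in p27-/-;Sox2+/- mice, with -0.29 to 0.33 in WT. For this pair the 3 genotypes did not overlap. Pmaip1 relative to Mcl1, the main partner of NOXA, averaged 0.98 ± 0.23 (SD, n = 3) in the p27-/- group but 0.13 ± 0.15 (SD, n = 3) in the p27-/-;Sox2+/- group. Bnip3 relative to Bnip3l was 0.20 ± 0.25 (SD, n = 3) and 0.11 ± 0.08 (SD, n = 3), within the range of WT from -0.15 to 0.25 for all but 2 p27-/- mice. These are ratios of mRNA and not of protein.

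**Figure D3:**
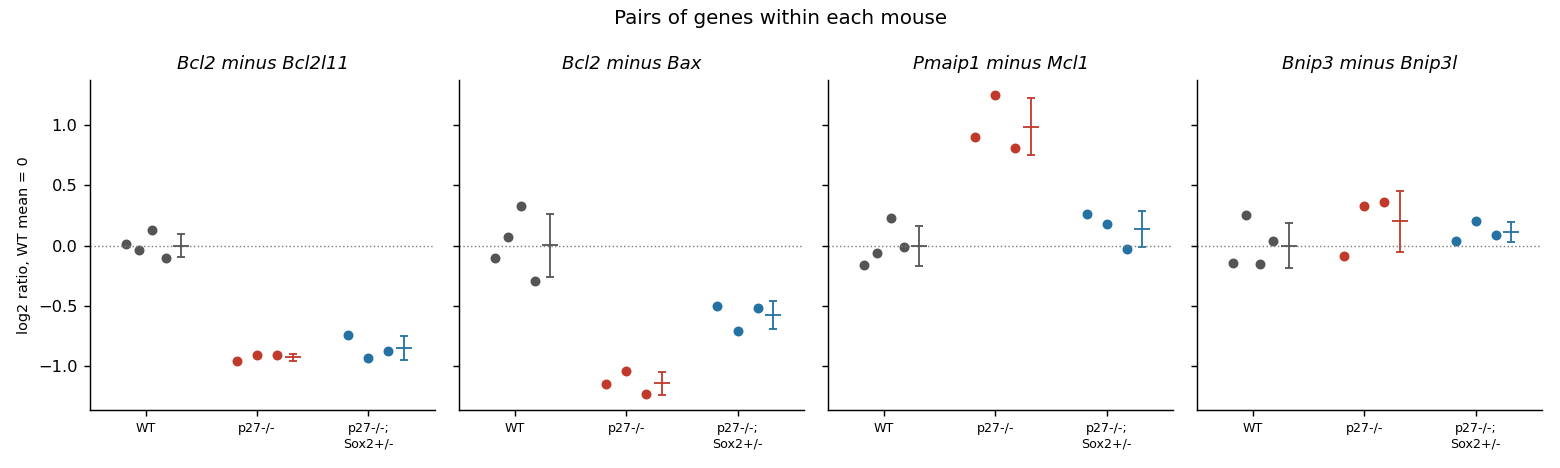
Log2 ratio (vertical axis, WT mean at 0) of 4 pairs of genes by genotype, 1 point per mouse with the mean and SD beside the points. Bcl2 relative to Bcl2l11 is low in both mutants at -0.92 and -0.85, whereas Bcl2 relative to Bax separates them at -1.14 and -0.57.

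Of 86 related genes, 82 were in the table and 76 were tested. They were tested in the same limma fit with adjustment over all 17268 genes. In p27-/- compared with WT, 4 of 76 passed the threshold, against 7.78% of all genes, 3 higher and 1 lower. In p27-/-;Sox2+/- mice and between the mutants 0 of 76 passed (limma, with 8 and 4 at an unadjusted p under 0.05). These counts leave out listed genes that are not reported here. The median log2 difference of the 76 genes was 0.06, 0.04 and -0.02 in the 3 comparisons.

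The other BCL2 family genes did not pass. Of 18 listed, 15 were in the table and 11 tested, and 0 of 11 passed in any comparison, with 1 at an unadjusted limma p under 0.05 in each. The largest log2 differences in p27-/- mice were 0.33 for Bcl2a1b (adjusted p = 0.117), an anti-apoptotic gene of blood cells whose reads can be shared with near-identical copies, and 0.22 for Bnip1 (adjusted p = 0.367). Bcl2l14 lies 0.51 Mb from Cdkn1b, where alleles linked to the deletion could differ, and was below the minimum level, as were Bcl2l10, Bik and Bcl2l15.

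In p27-/- mice 1 of the 18 genes counted of the apoptosome, caspases and their inhibitors passed the threshold, beside 7.78% of all tested genes. In p27-/-;Sox2+/- mice 0 of the 18 passed, beside 2.71% of all. At an unadjusted limma p under 0.05 there were 6 of the 18 in p27-/- and 2 in p27-/-;Sox2+/- mice. Casp2, an initiator caspase, was between 8.54 and 8.79 in p27-/- and between 8.01 and 8.40 in WT samples, with a log2 difference of 0.41 (standard error 0.11, adjusted p = 0.0349). It was between 8.57 and 8.64 in p27-/-;Sox2+/- samples, at 0.34 (adjusted p = 0.108). Cycs, the gene of cytochrome c, was between 7.62 and 7.78 in p27-/- and between 7.19 and 7.60 in WT samples, at a difference of 0.35 (0.11, adjusted p = 0.0796) that did not pass the threshold. The Casp2 call was lost in 8 of 19 alternative settings, among them those without WT replicate 3, any 1 of the p27-/- mice or p27-/-;Sox2+/- replicate 2, with adjusted p-values up to 0.139 when a mouse was left out.

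In the mitophagy list 0 of the 18 genes counted passed in any comparison (limma, with 6, 2 and 1 at an unadjusted p under 0.05). The largest log2 differences in p27-/- mice were 0.42 for Pgam5, a mitochondrial phosphatase (standard error 0.17, adjusted p = 0.138), and -0.36 for Fbxl4 (0.12, adjusted p = 0.0824), whose protein takes part in the ubiquitination that keeps BNIP3 and NIX low. Fbxl4 was 7.57, 7.76, 7.96 and 7.88 in WT, 7.57, 7.50 and 7.24 in p27-/- and 7.52, 7.64 and 7.57 in p27-/-;Sox2+/- samples. All 3 genotypes overlapped for Fbxl4, with WT replicate 1 at the level of the mutants. Pink1, whose kinase marks damaged mitochondria, had a log2 difference of -0.10 in p27-/- mice (adjusted p = 0.66).

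Among 16 tested transcription factor genes and regulators known to act on the family, 3 passed in p27-/- mice, beside 7.78% of all tested genes. In p27-/-;Sox2+/- mice 0 of the 16 passed, beside 2.71% of all. At an unadjusted limma p under 0.05 there were 6 of the 16 in p27-/- and 1 in p27-/-;Sox2+/- mice. E2f1, whose protein drives entry into S phase and can act on genes of the family, was 0.45 higher on the log2 scale (standard error 0.12, adjusted p = 0.0374), with 4.83 to 5.30 in p27-/- and 4.57 to 4.76 in WT samples. Atf4, a factor of the integrated stress response, was 0.32 higher (0.08, adjusted p = 0.036), with 9.71 to 9.83 and 9.34 to 9.53. E2f1 was also above all WT samples in p27-/-;Sox2+/- mice, between 4.93 and 5.05, at a log2 difference of 0.35 (limma adjusted p = 0.14). Atf4 in p27-/-;Sox2+/- mice overlapped WT, at 0.15 (adjusted p = 0.388). Epas1, which encodes HIF-2α and is abundant in endothelium, fell by 0.55 on the log2 scale (0.15, adjusted p = 0.0412), with 8.87 to 9.06 in p27-/- and 9.25 to 9.85 in WT samples. In p27-/-;Sox2+/- mice Epas1 was between 9.28 and 9.84, at a difference of 0.02 from WT. Of the 5 endothelial markers, only Kdr passed the threshold, with log2 differences from WT of -0.83 in p27-/- and -0.67 in p27-/-;Sox2+/- mice, Cdh5 was below WT without overlap in p27-/- mice at -0.39, and Pecam1, Emcn and Plvap overlapped WT in both mutants. The difference of Epas1 between the mutants was 0.56 (adjusted p = 0.302). Trp53 and Hif1a had differences of 0.15 and 0.13 in p27-/- mice (adjusted p = 0.44 and 0.463). The calls of E2f1, Atf4 and Epas1 were lost in 10 of 18, 11 of 19 and 9 of 19 alternative settings, with adjusted p-values up to 0.158, 0.152 and 0.138 when a mouse was left out. Leaving out WT replicate 4 or p27-/- replicate 2 or 3 ended all 3 calls. Leaving out p27-/- replicate 1 ended those of Atf4 and Epas1, WT replicate 3 and p27-/-;Sox2+/- replicate 2 those of E2f1 and Atf4, p27-/-;Sox2+/- replicate 1 those of E2f1 and Epas1, WT replicate 1 that of Epas1 and WT replicate 2 that of E2f1.

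Genes that act on the binding, ubiquitination and stability of the family proteins did not pass, with 0 of 13 in each comparison (limma, with 3, 2 and 0 at an unadjusted p under 0.05). The largest log2 differences in p27-/- mice were -0.34 for Bag3, a co-chaperone (adjusted p = 0.0887), and 0.24 for Ywhaz, a 14-3-3 protein (adjusted p = 0.137).

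**Figure D4:**
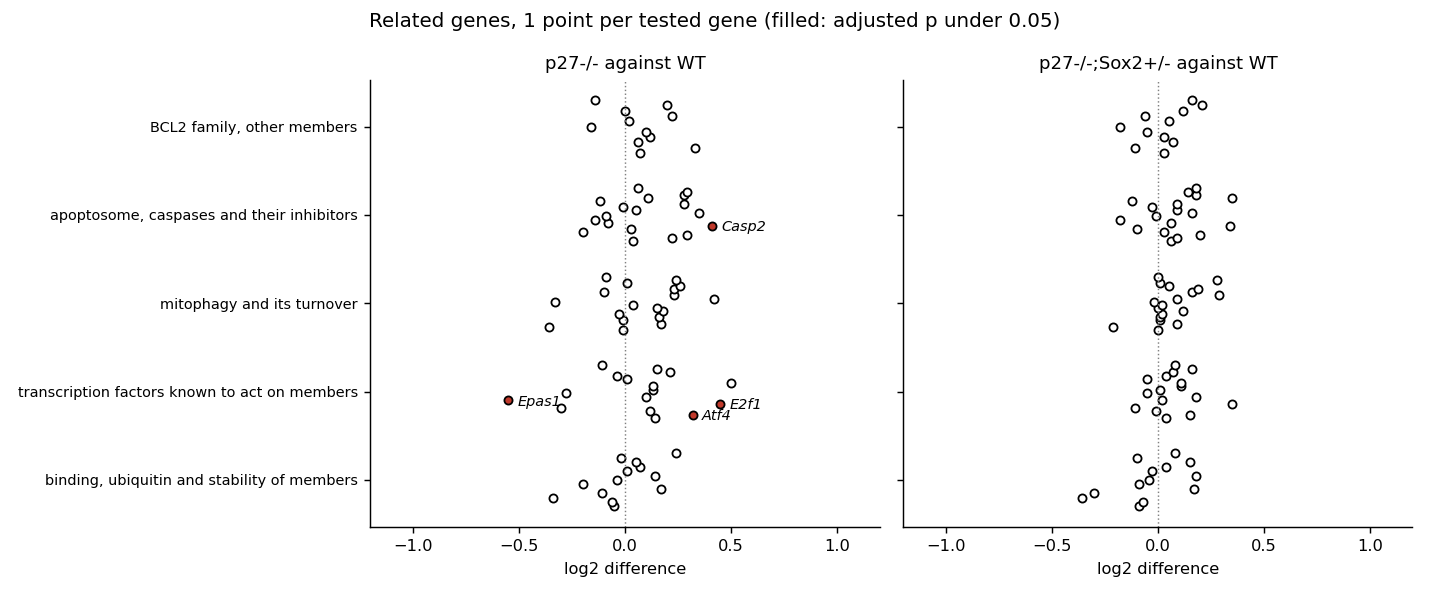
Log2 difference from WT (horizontal axis) of the tested genes of 5 related lists in p27-/- and in p27-/-;Sox2+/- mice, 1 point per gene, filled where the adjusted p was under 0.05. The 4 filled genes, all in p27-/-, lie between -0.55 for Epas1 and 0.45 for E2f1.

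The genes nearest in profile to Pmaip1 and Bnip3 were found by the mean absolute difference over the 10 samples, after each profile was centred on its own mean, as a description with no test. Nearest to Pmaip1 were Diras2 (0.130), Sh2d2a (0.134), Id2 (0.167), Idi1 (0.178) and Casc5 (0.179, a kinetochore gene). Diras2 had mean log2 values of 9.46 in WT, 10.32 in p27-/- and 9.73 in p27-/-;Sox2+/- mice, and each of the 5 was highest in p27-/- mice. Nearest to Bnip3 were Nap1l5 (0.069), Hcfc2 (0.069), Gabrg3 (0.071), Srsf6 (0.072) and Rap2b (0.075). In these 5 genes WT replicate 2 was the highest WT sample and p27-/-;Sox2+/- replicate 1 the lowest of its group, as in Bnip3. The measure is not scaled to how far a gene varies between samples, so closeness to Pmaip1 and to Bnip3 cannot be compared. Genes of both sets were picked for likeness over these same samples, so shared orders of genotypes and mice follow from the choice. WT replicate 2 was also the highest of all 10 samples for the anterior lobe genes Prl, Gh and Pou1f1, with a Prl value of 17.54 against 11.40 to 13.09 in the other WT samples, but not for Fshb, Tshb or Nr5a1. Fshb was lower in both mutants, with log2 differences from WT of -2.04 (standard error 0.50) in p27-/- and -2.27 (0.50) in p27-/-;Sox2+/- mice that passed the threshold, and Gh was lower without overlap in p27-/-;Sox2+/- mice, at -1.67 (0.43), which did not pass it. Fshb, Prl, Pou1f1, Tshb and Nr5a1 overlapped between WT and each mutant. For Fshb, WT replicate 1 was 7.15, against 9.24 to 9.64 in the other WT samples. That was below 7.26 in p27-/- replicate 1 and 7.50 in p27-/-;Sox2+/- replicate 3. The part of anterior lobe tissue in these profiles and in the genotype differences was not tested.

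**Figure D5:**
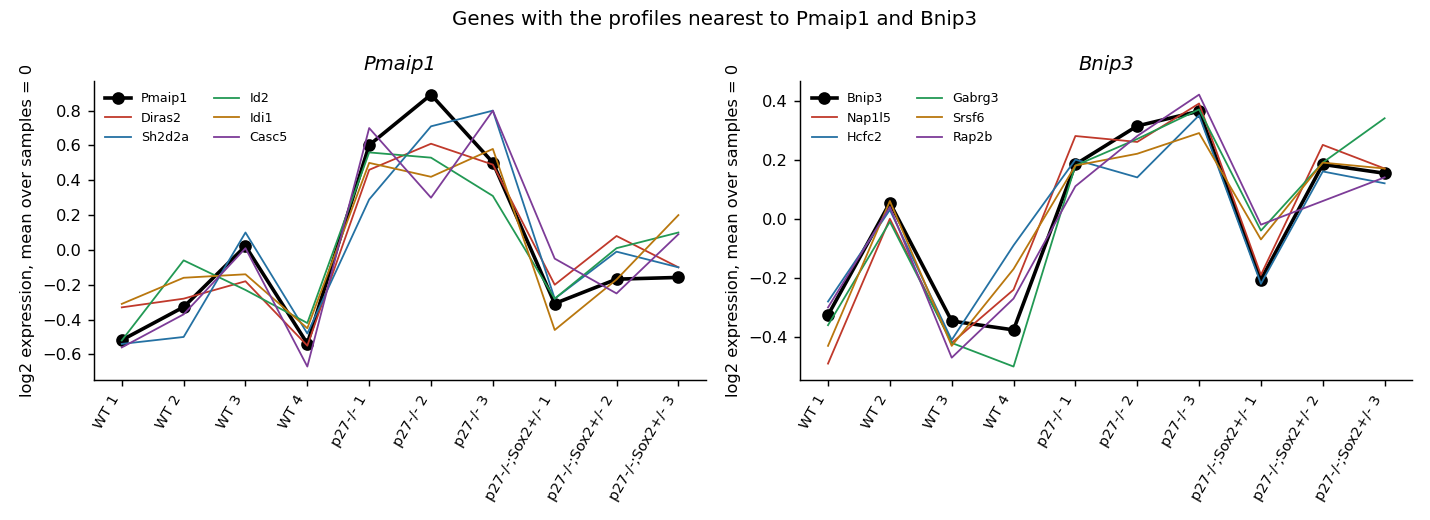
Log2 expression centred on the mean over 10 samples (vertical axis) by mouse (horizontal axis) for Pmaip1 and Bnip3 (black) and the 5 genes with the smallest mean absolute difference from each. In the Bnip3 panel WT replicate 2 is the highest WT sample and p27-/-;Sox2+/- replicate 1 the lowest of its group in all 6 lines. The 5 genes were picked for such likeness.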

How the data were processed

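The authors aligned the reads with STAR 2.5.2a, estimated counts per gene with RSEM on GRCm38 without strand, normalized them with DESeq2 1.18.1 and deposited log2 values, and the transformation is not given in the sources used here. The values are not counts, so the depth of each sample is unknown, although the study's methods give an average depth that was aimed for. Precision is limited by how many mice there were. Groups follow the labelled genotype. Genes with a mean log2 value of at least 3.32, or 10 on the linear scale, were tested in 1 fit of the 10 samples with limma 3.58.1 in R 4.3.3 (eBayes with a trend, two-sided, Benjamini-Hochberg), and the fit was tested on simulated data. Symbols were matched by Ensembl gene identifier and found for 22709 of 29527 identifiers. Synonyms, positions and promoters came from RefSeq on GRCm38.p6. Reads of genes that overlap (Bcl2l11 with Acoxl, Bcl2 with a long noncoding RNA, Bak1 with Ggnbp1, Bcl2l1 with Cox4i2, Bnip3 with a pseudogene, E2f1 with Necab3) cannot be fully told apart. Every member was named, together with each related gene past the threshold and, for lists with fewer than 2 such genes, the 2 largest differences in p27-/- mice, and Trp53, Hif1a and Pink1 were added after their values were seen. Some listed genes are not reported here, and the related lists are counted without them. The members and lists were chosen with earlier results of these data known. As alternatives, each mouse was left out in turn, quantile normalization or median centring was applied, the level of Xist was a covariate, the replicate number was a block, array weights were used, the trend was dropped, the fit held only the 2 genotypes compared, or the minimum was dropped or set to a linear mean of at least 50.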

Additional observations from a re-analysis of the deposited data

Results flagged for a closer look

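In 3 of 18 measures (the 10 genes, 4 related genes past the threshold and 4 pairs), 1 of the 4 WT mice lay apart from the others, by a gap that is large relative to the range of the group (Dixon's 95% limit), which chance gives in about 1 in 20 groups. Bcl2l1 was 8.49 in WT replicate 1 (0.866 of the range). Bnip3 was 8.81 in WT replicate 2 (0.884), and Bnip3l was 10.04 in WT replicate 4 (0.898). Without these mice the log2 differences in p27-/- compared with WT were 0.18 for Bcl2l1, 0.63 for Bnip3 and 0.28 for Bnip3l, beside 0.09, 0.53 and 0.33.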

How the results depend on the processing

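All 564 differences of the 10 genes under the alternatives moved by less than 1 SD between replicates, whereas counts of calls moved more. Differences past the threshold kept their sign, and those of Bbc3, Bcl2l1, Mcl1 and Bak1 closest to 0 changed sign in some settings, to values no further from 0 than 0.11. In p27-/- compared with WT, 1343 of all tested genes passed, and 831 without a minimum, 807 with the 2 genotypes alone, 595 with the replicate block and 403 to 1709 with a mouse left out. Of the related genes 4 passed, and 0, 1, 0 and 0 to 5 in the same settings, with 2 without a trend. In p27-/-;Sox2+/- compared with WT, 468 passed, and 260 with the 2 genotypes alone, 1240 with array weights, 209 with the replicate block and 80 to 658 with a mouse left out. Of the related genes 0 passed, 3 with array weights, 0 with the replicate block and 0 to 1 with a mouse left out. Between the mutants 25 passed, and 6 without a minimum, 45 with the 2 genotypes alone, 8 without a trend, 283 with array weights, 15 with quantile normalization, 2 with the replicate block and 0 to 41 with a mouse left out. The cause of these shifts in the counts was not tested. Fits with a mouse left out or with only the 2 genotypes compared also held fewer samples. Deviations of same-numbered samples from their group means had correlations from -0.238 to 0.182. No pairing by replicate number was seen, but these correlations cannot exclude one, and the labels do not give litter. The replicate block also ended the calls of Bcl2l11 and Bcl2 in p27-/-;Sox2+/- against WT and of Pmaip1 between the mutants. Array weights added Bnip3l in p27-/- against WT and Bcl2l11 and Bcl2 between the mutants. With a linear mean of at least 50, Pmaip1 and Bbc3 were not tested. Median centring shifted the differences by at most 0.02 on the log2 scale.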
